A study of Rattus norvegicus with 20 samples.

Results

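Mammary adenocarcinomas of irradiated rats that gained much weight on a high-fat diet were compared with those of rats that gained less on the same diet. The members were chosen by sample title alone, as the scanner files of the 6 cancers labelled obesity-prone (OP) and the 3 labelled obesity-resistant (OR), 9 of the 20 arrays of the series, and every gene on the array was then tested. All animals were female Jcl:SD Sprague-Dawley rats. OP and OR rats were separated by body weight within 1 cohort fed 45 kcal% fat. They shared that diet and were not set apart by a drug or a chosen allele. Whether they differ in genotype was not tested. Lean controls (LC) received 10 kcal% fat and gave 3 further cancers. All 3 arms, with 30 rats each, had 4 Gy of whole-body gamma rays at 7 weeks of age and were followed for 30 weeks, so no unirradiated cancer enters any comparison here. Normal mammary tissue came from 3 OP, 2 OR and 3 LC samples. The labels describe the cancers as picked for uniform histology without necrosis or heavy infiltration, which limits what they say about other tumours. They do not say that each sample came from its own animal, so the p-values reflect variation among these samples, which may be technical.

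As background, rats of this outbred stock differ in how much weight they gain on fat-rich food, and obesity raises circulating insulin and leptin and alters adipokines and oestrogen supply to the breast. Insulin, insulin-like growth factors (IGFs) and growth factors of the epidermal growth factor (EGF) family act through receptor kinases on the RAS-MAPK and PI3K-mTOR chains, which in turn control the making of ribosomes, sugar use and cell division. Rat mammary carcinomas arise mostly from luminal, milk-duct-type epithelium and often keep hormone receptors.

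RNA was labelled with 1 dye and hybridised to whole-genome oligonucleotide arrays, and values are quantile-normalised log2 signals, on which a difference of 1 is a doubling. Probes well above background made up 61.2% to 79.3% of all probes on the OP cancers and 71.3% to 78.3% on the OR cancers, a mean difference of -9.17 percentage points with p = 0.107 in an exact two-sided permutation test over the 9 cancers. That difference was -13.1 points among the 6 cancers scanned on day 1 and -1.25 among the 3 scanned on day 2. Without OP cancer 2, which had the highest share, it was -11.9 with an exact permutation p of 0.0179. Leaving out any other of the 9 cancers gave an exact permutation p of 0.107 to 0.321. The 9 cancers lay on 5 slides and no slide held both groups, so slide and group cannot be told apart within a slide. A fit of the cancers with slide as a fixed block compares OP with OR only through LC cancers on the same slides. It rests on OP cancer 1, OR cancers 2 and 3 and the LC cancers. The other OP cancers and OR cancer 1 shared no slide with a cancer of another group. Both scan days held both groups in the same proportion, so that a scan-day term leaves every difference as it is. Adipocyte genes marked the tissues apart as labelled: adiponectin (Adipoq) had log2 signals of 6.74 to 7.44 in the 9 cancers and 14.76 to 15.52 in the OP and OR normal tissue. The luminal keratin gene Krt18 was at 17.59 to 18.58 in the cancers. In bulk tissue, fewer cells of a type and less RNA per cell cannot be told apart.

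No gene passed in the comparison of OP with OR cancers. Of 36043 genes tested with limma over the 12 cancers, 0 (0%) reached a Benjamini-Hochberg adjusted p under 0.05, and the smallest adjusted p was 0.0831. Without adjustment, 3962 genes (11%) had p under 0.05, of which 1764 (4.89%) were higher and 2198 (6.1%) lower in OP cancers. Of these, 69 genes (0.191% of all) differed at least 2-fold, 31 upward and 38 downward. All 6 OP cancers lay above all 3 OR cancers for 734 genes (2.04%) and below them for 1135 (3.15%), 5.19% together. The typical gene was measured with an SE of 0.117, and a 95% interval reached 0.256 to either side, so that modest differences of single genes lay within the error of 9 cancers. Scaling mattered for the balance of directions. With each array's processed signal set to its 75th percentile in place of quantile normalization, the median gene shifted by -0.16 and 857 genes were higher against 5634 lower at unadjusted p under 0.05, and 12 genes passed the adjusted threshold, all lower in OP cancers. The genes and groups that follow are therefore described by their values, and none of them passed the adjusted test unless that is stated.

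The clearest gene on the higher side was Slc38a4, which encodes a sodium-coupled transporter of neutral amino acids. The 6 OP cancers had log2 signals with a lowest, median and highest value of 8.19, 8.44 and 8.92, and the 3 OR cancers had 7.42, 7.71 and 7.24. Every OP cancer lay above every OR cancer, and the LC cancers, at 7.58, 7.56 and 7.72, lay with the OR cancers. The difference was 1.01 ± 0.15 (SE), a ratio of 2.02, with an unadjusted limma p of 3.93e-05. It was 0.85 on scan day 1 and 1.33 on scan day 2. Mras, a RAS-related GTPase, had the next largest difference of the 12 highest-ranked genes on this side, with OP values of 10.14, 10.59 and 10.80 against OR values of 9.92, 9.30 and 9.60. That difference was 0.92 ± 0.17 (SE, unadjusted p = 0.000203), again without overlap and with LC cancers at 9.57, 9.69 and 9.96. For Gpm6b, a membrane glycoprotein best known from neurons and glia, OP cancers had 9.75, 10.14 and 10.39 and OR cancers 9.58, 9.03 and 9.41. The groups did not overlap, although LC cancers at 9.75, 9.91 and 9.27 reached into the OP range.

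Zcchc9, a zinc-knuckle protein gene, had OP values of 10.79, 11.34 and 11.46 and OR values of 10.51, 10.68 and 10.66, a difference of 0.66 ± 0.13 (SE). OP cancer 6 gave the low value, and the other 5 OP cancers lay between 11.27 and 11.46. Among signalling genes, the beta catalytic subunit of protein kinase A (Prkacb) differed by 0.50 ± 0.11 (SE), from 7.13, 7.24 and 7.20 in OR cancers to a median of 7.69 in OP cancers. The G protein-coupled receptor kinase Grk4 differed by 0.69, but its other probe differed by only 0.042. Mef2a, a transcription factor of muscle and other cells, differed by 0.51 on its brightest probe and 0.27 on the other. Tram1, which helps nascent chains enter the endoplasmic reticulum (ER), differed by 0.44 with OP values from 10.15 to 10.51 and OR values from 9.83 to 9.92. The remaining genes of the 12 highest-ranked were Rpl13a and Cox7a2, described with their complexes below, Zzef1 (0.39) and Eogt (0.26), a transferase that puts N-acetylglucosamine on EGF-like domains.

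On the lower side, the largest of the 12 highest-ranked differences was in Tcea3, a transcription elongation factor, at -1.23 ± 0.27 (SE, unadjusted p = 0.000798). Its OP values were 8.94, 9.51 and 10.06 and its OR values 10.92, 10.79 and 10.45, and the LC cancers spanned both groups at 9.79, 9.96 and 10.68. Tgfa, the EGF receptor ligand transforming growth factor alpha, had OP values of 9.77, 10.35 and 10.38 against OR values of 10.97, 10.91 and 10.98. This difference of -0.69 ± 0.13 (SE) had OP cancer 1 as its low extreme, while the other 5 OP cancers lay within 10.35 to 10.38, still below the OR cancers. LC cancers, at 10.81, 10.59 and 10.93, were nearer the OR values. Bcas1, a gene amplified in breast carcinomas, had the opposite relation to the lean group. Its OP values of 6.70, 6.96 and 7.11 and LC values of 6.75, 6.77 and 7.05 both lay below the OR values of 7.48, 7.42 and 7.56, and OP minus OR was -0.55 ± 0.097 (SE).

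F13a1, the coagulation factor XIII A chain that tissue macrophages also make, behaved like Bcas1, with OP cancers at 6.61, 6.64 and 6.85, OR cancers at 7.09, 7.66 and 7.39 and LC cancers at 6.43, 6.74 and 6.83. Only 2 of 6 OP arrays had this probe well above background, and the difference of -0.69 was -0.90 on scan day 1 and -0.26 on scan day 2. Genes of epithelial structure stood next. The hair-type keratin Krt33a differed by -0.69 ± 0.13 (SE), the laminin chain Lama3 of the epithelial basement membrane by -0.57 ± 0.13 (SE), and the gap junction protein Gjb5 by -0.45 ± 0.093 (SE). In Krt33a the OP values 12.68, 13.02 and 13.16 lay below the OR values 13.56, 13.65 and 13.78, and both other genes separated the groups as well. Map2k4, a kinase that activates the stress kinase JNK, differed by -0.35, and the ER disulphide isomerase Pdia4 by -0.61. The potassium channel gene Kcnh6 (-0.46), the RNA-granule protein gene Tdrd7 (-0.49) and Svs5 (-0.38), a seminal vesicle secretion gene with only 1 OP array well above background, completed the 12. The direction of all 24 genes was kept within scan day 1 and within scan day 2. This had to be so, since the groups did not overlap in these genes, and it adds no support.

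**Figure D1:**
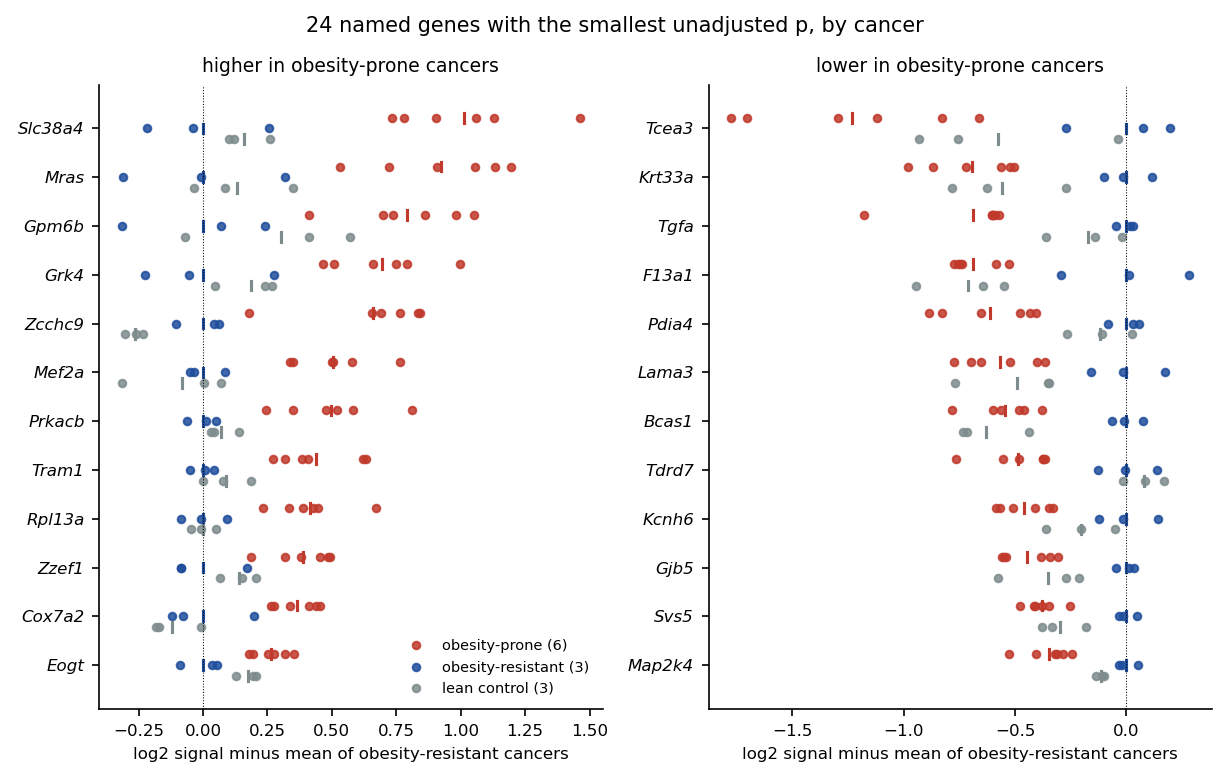
Log2 signal of each cancer minus the mean of the 3 OR cancers (x axis) for the 24 named genes with the smallest unadjusted p (y axis), 12 in each direction, with points for cancers and short bars for group means. The 6 OP cancers (red) lie apart from the 3 OR cancers (blue) for all 24 genes, while the 3 LC cancers (grey) lie with either group or between them.

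Among the gene lists, the ribosome stood out. Of 63 measured ribosomal protein genes, 28 were higher and 1 lower in OP cancers at unadjusted p under 0.05, against 4.89% and 6.1% of all genes, and 0 passed after adjustment. The difference was positive for 52 members and negative for 11, with a median of 0.26 where the median of all genes was -0.0043. Averaged over the list, log2 signals were 16.51, 16.61, 16.34, 16.38, 16.50 and 16.21 in OP cancers 1 to 6, 16.19, 16.20 and 16.27 in the OR cancers, and 16.18, 16.35 and 16.22 in the LC cancers. OP cancers 1 to 5 were above all OR cancers, and OP cancer 6 lay among them. Rpl13a had the smallest p of the list, with OP values of 17.09, 17.26 and 17.53, OR values of 16.77, 16.95 and 16.85 and a difference of 0.42 ± 0.088 (SE, unadjusted p = 0.000592). Rpl10a differed by 0.52 ± 0.13 (SE), Rpl35a by 0.50 ± 0.14 (SE) and Rpl39 by 0.51 ± 0.14 (SE), all subunits of the large ribosomal particle. In the small particle, Rps7 differed by 0.60 ± 0.26 (SE), Rps24 by 0.47 ± 0.18 (SE) and Rps12 by 0.24 ± 0.082 (SE), of which only Rps12 separated the groups without overlap. Rpl4 was the 1 member lower at unadjusted p under 0.05, by -0.36 ± 0.15 (SE). Rps10 and Rps15a, given with their sequences, and Rpl39, Rps7, Rps24, Rps12 and Rpl4 were chosen after their values were seen. Ribosomal protein signals lie near the top of the range of the array and many of these genes have near-identical processed copies in the genome, so a probe may take signal from more than its own gene.

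The ribosomal count held in direction under the scalings tried and was smaller without single OR cancers. It was 31 higher and 0 lower on processed signals scaled to the 75th percentile, where all genes gave 2.38% and 15.6%, and 35 and 2 without OP cancer 6, where all genes gave 7.95% and 7.5%. It was 17 and 0 without OR cancer 2, 18 and 2 without OR cancer 1, 11 and 4 within scan day 1, 20 and 0 within scan day 2, and 14 and 2 with slide as a fixed block. In these last 5 settings 2.57% to 6.25% of all genes were higher and 3.6% to 8.05% lower.

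The transcripts of vertebrate ribosomal protein genes typically begin with a run of pyrimidines, the 5′ TOP tract, through which mTOR signalling acts on their translation. Start windows of 51 of the 63 measured ribosomal genes were found by symbol in RefSeq (build GRCr8, another build than the rn4 of the array annotation). The letters CTTTC, searched on both strands within 15 bases before to 15 after the annotated start, occurred in 25 of them (49.0%), 24 on the transcribed strand, against 7.32% of all 33469 windows of that length. Among the 23 windows of members at unadjusted p under 0.05, 11 held it. The 4 of these with the smallest p are shown 5′ to 3′ with the match in capitals, since they are the transcript starts of a group whose members shared a direction. A match describes the letters only and was not measured here as a site of control.
Rpl13a, chr1:104748899-104748928, minus strand: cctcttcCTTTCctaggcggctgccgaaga
Rpl35a, chr11:81235007-81235036, minus strand: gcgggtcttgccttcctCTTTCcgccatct
Rps10, chr20:5700730-5700759, minus strand: gccgcgcacgccccttcCTTTCcagcctcc
Rps15a, chr1:181860270-181860299, minus strand: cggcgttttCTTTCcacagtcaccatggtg
Rps10 differed by 0.34 ± 0.11 (SE) and Rps15a by 0.26 ± 0.099 (SE) between OP and OR cancers.

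Of 40 measured subunits of the mitochondrial respiratory chain and ATP synthase, 9 were higher and 1 lower in OP cancers at unadjusted p under 0.05, against 4.89% and 6.1% of all genes, and 0 passed after adjustment, with a median difference of 0.067. Cox7a2 of cytochrome c oxidase had OP values of 13.79, 13.90 and 13.98 and OR values of 13.45, 13.41 and 13.72, a difference of 0.36 ± 0.084 (SE) without overlap. Ndufv2 of complex I differed by 0.40 ± 0.15 (SE) and Atp5po of ATP synthase by 0.31 ± 0.11 (SE), also without overlap. Cox5b (0.35), Ndufa11 (0.41) and Atp5mc2 (0.20) were higher with some overlap, and Atp5pb was lower, at -0.26. The count was 1 higher and 0 lower without OR cancer 2, against 2.57% and 3.6% of all genes. It was 4 and 6 with slide as a fixed block, against 6.25% and 5.57% of all genes, so the direction of the list is not settled. Within scan day 2, which held 1 OR cancer, the list median was 0.16. Cox5b, Ndufa11, Atp5po and Atp5pb were chosen after their values were seen.

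Of 35 measured genes of glucose uptake, glycolysis and the response to low oxygen, 0 were higher and 11 lower in OP cancers at unadjusted p under 0.05, against 4.89% and 6.1% of all genes, 0 passed after adjustment, and the median difference was -0.41. Of the 35, 1 member had groups that did not overlap, near the 3.15% of all genes with every OP cancer below every OR cancer. This was Pgam1, which converts 3- to 2-phosphoglycerate, with OP values of 15.37, 15.90 and 16.11 and OR values of 16.25, 16.31 and 16.67. It differed by -0.61 ± 0.18 (SE, unadjusted p = 0.00508), and its LC values of 16.37, 16.08 and 16.16 reached into both groups. Ldha, which makes lactate from pyruvate, had OP values of 10.78, 11.83 and 12.42 and OR values of 12.29, 12.81 and 12.90, a difference of -0.86 ± 0.31 (SE) with overlap. The lactate exporter Slc16a3 had the largest difference at unadjusted p under 0.05, -1.25 ± 0.50 (SE), with OP values of 11.58, 12.65 and 13.91 and OR values of 13.55, 13.55 and 14.50. OP cancers 1, 4 and 5 were lowest there, and OP cancer 6 reached 13.91, inside the OR range. The glucose transporter Slc2a1 differed by -0.96 ± 0.37 (SE) and the collagen prolyl hydroxylase P4ha1 by -0.96 ± 0.36 (SE). The glycolysis genes Gpi, Aldoa, Tpi1 and Pgk1 differed by -0.60, -0.95, -0.79 and -0.81, and the mitophagy gene Bnip3 by -0.69. The regulator Hif1a itself and its target Vegfa differed by 0.23 and 0.024, neither at unadjusted p under 0.05. List means were 10.47 to 11.41 in OP cancers, 11.29 to 11.58 in OR cancers and 11.03 to 11.46 in LC cancers. Slc16a3, Slc2a1, Aldoa, Pgk1, Tpi1, Bnip3, Gpi, Hif1a and Vegfa were chosen after their values were seen.

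This count rested on few cancers. It was 1 without OR cancer 3, 4 without OR cancer 2 and 6 without OP cancer 1, 4 or 5 each. It was 2 with the share of probes well above background as a covariate, whose part in the result was otherwise not tested. Of all genes, 3.87% were lower without OR cancer 3, 3.6% without OR cancer 2 and 4.94% with the covariate. Without OP cancer 1, 4 or 5 this share was 4.9% to 6.25%. The median of the list was -0.26 with that covariate, -0.20 without OR cancer 3 and -1.47 with slide as a fixed block. Start windows of 31 members were found in RefSeq (GRCr8), reaching from 250 bases before to 50 after the start. The letters ACGTG, the core of the hypoxia response element, occurred on either strand in 18 of them (58.1%), against 19.3% of all windows. The stretches around the match in 3 members with the smallest p are given with the match in capitals (on the strand shown for Pgam1 and Ldha, on the opposite strand for P4ha1), because this is the sequence by which the list's textbook regulator is known to bind.
Pgam1, chr1:250672998-250673027, plus strand: gccctaattgcttACGTGcgctccgtgact
Ldha, chr1:106507993-106508022, plus strand: tagcccagcctacACGTGggttcccgcacg
P4ha1, chr20:27845044-27845073, plus strand: gtgtgactgagcgCACGTagcgagagctgt
No binding was measured, and the letters alone do not mark a site.

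Of 23 measured chaperones and enzymes of protein folding in the ER, 6 were lower and 0 higher in OP cancers at unadjusted p under 0.05, against 6.1% and 4.89% of all genes, with 0 after adjustment and a median difference of -0.25. Pdia4 had OP values of 9.58, 9.90 and 10.06 and OR values of 10.52, 10.50 and 10.39, a difference of -0.61 ± 0.12 (SE, unadjusted p = 0.000291). Its relative Pdia6 had 14.33, 14.66 and 14.96 against 15.08, 15.15 and 15.02, a difference of -0.43 ± 0.13 (SE). Hspa5, the chaperone BiP that holds the stress sensors inactive, had 14.28, 14.53 and 14.79 against 14.98, 15.04 and 14.89, and 1 of those sensors, the kinase gene Eif2ak3 (PERK), had 7.47, 7.61 and 7.90 against 8.14, 8.08 and 7.97. In all 4 of these genes, of 23 measured, every OP cancer lay below every OR cancer, against 3.15% of all genes. P4hb differed by -0.35 ± 0.13 (SE), and Ddit3 (CHOP), a transcription factor of prolonged stress, by -0.51, although within scan day 2 it was 0.25. Atf4, Calr and Canx differed by 0.0016, 0.032 and 0.084. The list median was -0.28 within scan day 1 and 0.089 within scan day 2. The count of lower members was 3 without OR cancer 2, where 3.6% of all genes were lower. The ER stress response element (ERSE), searched as its full consensus on both strands, was found in 6 of 19 start windows (31.6%) against 0.0657% of all, and its last bases with a following T overlap the ACGTG searched above. Of the members at unadjusted p under 0.05 with a window, only Hspa5 held it, printed from GRCr8 with the element in capitals.
Hspa5, chr3:38452967-38452996, plus strand: agttcaCCAATCGGAGGCCTCCACGacggg
Hspa5, P4hb, Ddit3, Atf4, Calr and Canx were chosen after their values were seen.

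**Figure D2:**
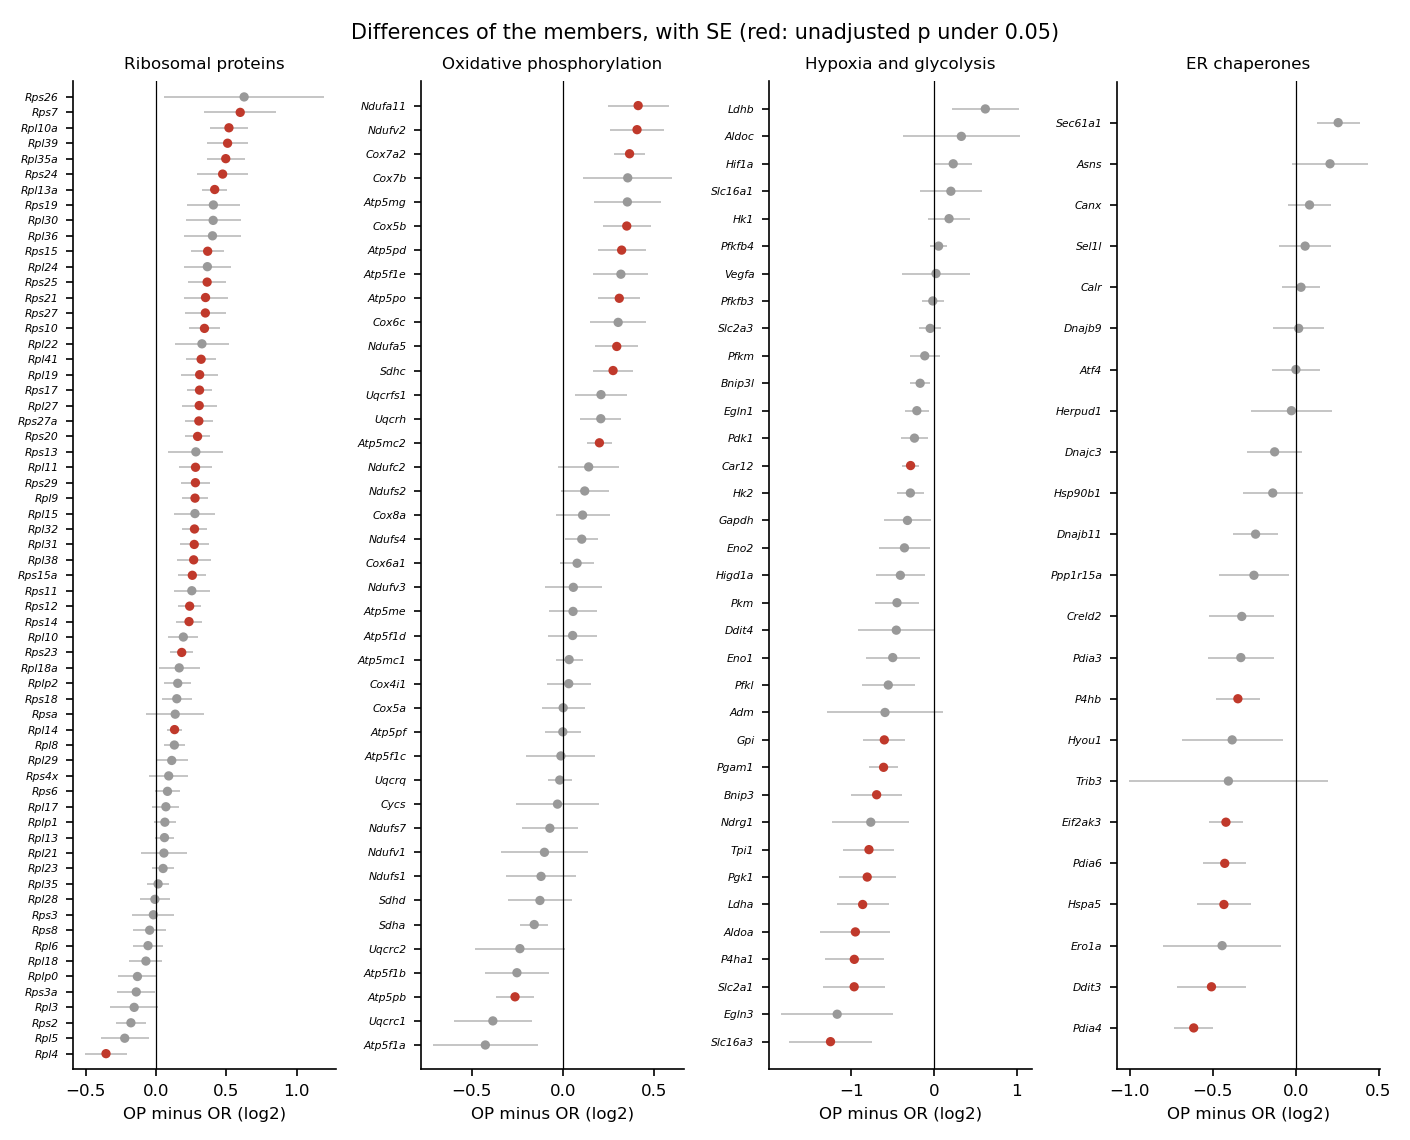
OP minus OR difference on the log2 scale with its SE (x axis) for each measured member (y axis) of 4 lists, with members at unadjusted p under 0.05 in red and the rest in grey. Of 63 ribosomal protein genes 52 lie to the right of 0, and of 35 hypoxia and glycolysis genes 28 lie to the left.

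Some adhesion and keratin genes of the luminal epithelium had lower signals in OP cancers. Of 22 luminal epithelial markers, 5 were lower and 0 higher at unadjusted p under 0.05, against 6.1% and 4.89% of all genes. Of these markers 0 passed after adjustment, and their median was -0.26. List means were 11.98, 11.57, 12.05, 12.08, 12.26 and 11.36 in OP cancers 1 to 6 and 12.20, 12.38 and 11.84 in the OR cancers, so OP cancers 2 and 6 were lowest and the other 4 lay within the OR range. OP cancer 6 also had the highest OP means of fibroblast (13.43), macrophage (13.07) and skeletal muscle markers (10.40), and OP cancer 2 the next highest of skeletal muscle markers (9.09), and their part in the result was not tested. Without OP cancer 6, 4 luminal markers were lower and 2 higher, against 7.5% and 7.95% of all genes, with a list median of -0.14. E-cadherin (Cdh1), the adhesion receptor of epithelial junctions, had OP values of 13.92, 14.09 and 14.37 and OR values of 14.70, 14.48 and 14.52, a difference of -0.47 ± 0.11 (SE, unadjusted p = 0.00105). LC cancers were at 14.40, 14.53 and 14.72, with the OR group. Its cytoplasmic partners were also lower, alpha-catenin (Ctnna1) by a difference of -0.47 ± 0.12 (SE) without overlap and beta-catenin (Ctnnb1) by -0.47 ± 0.16 (SE) on its brightest probe, while a further Ctnnb1 probe gave 0.014. Epcam, a surface glycoprotein gene of epithelium, had OP values of 13.27, 13.82 and 14.12 against 14.54, 14.62 and 13.91, a difference of -0.60 ± 0.19 (SE). The luminal keratins Krt8 and Krt18, which pair in 1 filament, differed by -0.58 ± 0.25 (SE) and -0.40 ± 0.15 (SE). The keratin Krt19 of the same list differed by only -0.0067 ± 0.23 (SE). The transcription factors Gata3 and Foxa1 of luminal identity differed by 0.21 and 0.052, neither at unadjusted p under 0.05. On processed signals, on normexp signals scaled to the 75th percentile and in the authors' deposited value table the lower count was 1. Of all genes, 15.6%, 1.07% and 5.18% were lower there. It was 2 without OR cancer 2, 1 with slide as a fixed block and 1 in the model of all 20 arrays. In these last settings 2.88% to 5.57% of all genes were lower. Krt8, Krt19, Gata3 and Foxa1 were chosen after their values were seen.

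In the EGF family, a ligand gene and its receptor gene differed in opposite directions. Tgfa was lower in OP cancers as given above, and Egfr, the receptor it binds, had OP values of 8.86, 9.59 and 10.40 and OR values of 9.05, 8.98 and 8.82, a difference of 0.66 ± 0.27 (SE) on its brightest probe and 0.17 on the other. OP cancer 6, at 8.86, was the 1 OP cancer within the OR range, and the LC cancers lay with the OP cancers at 9.46, 10.11 and 9.85. Erbb2, the co-receptor, differed by -0.53 ± 0.22 (SE) with overlap, and Areg, an oestrogen-induced ligand, varied too widely to compare, from 14.04 to 17.42 in OP and from 14.75 to 17.62 in OR cancers. Of 34 growth factor ligands and receptors, 1 was higher and 3 lower at unadjusted p under 0.05, close to the shares of all genes, and Fgf10, at -0.36 ± 0.096 (SE), was the third of the lower ones. In the RAS-MAPK chain, 3 of 25 were higher and 2 lower, against 4.89% and 6.1% of all genes, so the list as a whole had no direction. The higher ones were Mras, Shoc2 and Ptpn11, whose products act at the level of RAS and RAF, M-Ras and SHOC2 as parts of 1 phosphatase complex. Shoc2 had OP values of 9.72, 10.34 and 10.44 and OR values of 9.97, 9.74 and 9.74, a difference of 0.42 ± 0.14 (SE), and Ptpn11 (SHP2) had 13.01, 13.24 and 13.48 against 12.70, 12.95 and 12.95, a difference of 0.38 ± 0.11 (SE) without overlap. Among the lower ones was the downstream kinase Map2k1 (MEK1), at -0.39 ± 0.15 (SE), which was chosen after its values were seen.

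Genes of insulin, IGF, leptin and adiponectin signalling showed no shared direction. Of 47 measured, 2 were higher and 3 lower at unadjusted p under 0.05, against 4.89% and 6.1% of all genes. After adjustment 0 passed, and the list median was 0.033. Leptin (Lep) was not well above background on any of the 9 cancers. The leptin receptor gene Lepr differed by -0.027 ± 0.096 (SE), the insulin receptor gene Insr by 0.22 ± 0.10 (SE) and Igf1r by 0.17 ± 0.33 (SE). Igf1 had OP values of 11.82, 12.93 and 14.50 and OR values of 13.68, 14.22 and 13.49, a difference of -0.73 ± 0.57 (SE) with wide overlap. Igfbp5, an IGF-binding protein of the mammary gland, had 8.35, 10.08 and 11.62 against 8.86, 8.61 and 8.50, a difference of 1.38 ± 0.61 (SE) that was 1.89 on scan day 1 and 0.36 on scan day 2. Adipor2, an adiponectin receptor, differed by 0.35 ± 0.14 (SE). Tsc1, part of the complex that restrains mTOR, had 6.91, 6.93 and 6.97 against 7.10, 7.12 and 7.21, a small difference of -0.21 ± 0.051 (SE) without overlap. The insulin receptor substrate Irs1 differed by -0.24 and the adaptor Grb14 by -0.42. Igfbp5 and Grb14 were chosen after their values were seen.

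Hormone receptor genes did not separate the groups. The oestrogen receptor gene Esr1 differed by 0.17 ± 0.13 (SE) and the progesterone receptor gene Pgr by 0.31 ± 0.43 (SE), the second with OP values of 7.14, 8.09 and 9.04 and OR values of 7.48, 8.79 and 7.35. Of 26 oestrogen and progesterone response genes, 0 were higher and 1 (Calcr) lower at unadjusted p under 0.05, against 4.89% and 6.1% of all genes. Milk genes swung between single cancers: beta-casein (Csn2) had OP values of 8.32, 14.20 and 16.26 and OR values of 17.08, 8.07 and 8.11. Its difference was 5.63 on scan day 1 and -5.31 on scan day 2, so that no direction can be given. Proliferation genes were lower by sign in 20 of 21 cases, with a median of -0.36, but 0 reached unadjusted p under 0.05, and the median was -0.59 within scan day 1 and 0.069 within scan day 2. The mitotic cyclin Ccnb1 had OP values of 8.87, 10.17 and 10.72 and OR values of 10.31, 10.64 and 11.42. Ccnd1, the D cyclin that growth signals induce, had 13.68, 14.73 and 15.17 against 13.62, 14.40 and 13.90, a difference of 0.63 ± 0.30 (SE), with its other probe at 0.10.

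In lipid metabolism, 4 of 29 cholesterol synthesis genes were lower and 1 higher at unadjusted p under 0.05, against 6.1% and 4.89% of all genes, with a median of -0.11. The lower count was 0 in the model of all 20 arrays and 10 without OR cancer 1, against 2.88% and 7.37% of all genes. It was 1 without OR cancer 2 and 1 without OR cancer 3, against 3.6% and 3.87% of all genes. Within scan day 2, which held 1 OR cancer, the list median was 0.11, so the list has no settled direction. Insig2, a retention factor of the sterol sensor in the ER, had OP values of 8.09, 8.22 and 8.34 and OR values of 8.70, 8.41 and 8.59, a difference of -0.34 ± 0.079 (SE) without overlap. Squalene synthase (Fdft1) differed by -0.33 ± 0.12 (SE) and Nsdhl by -0.25 ± 0.095 (SE). The cholesterol exporter Abca1 was the higher gene, at 0.48 ± 0.22 (SE). Abca1 was chosen after its values were seen. Fatty acid synthesis genes split 2 higher and 1 lower of 29, the lower being Acsl3, an acyl-CoA synthetase, at -1.20 ± 0.47 (SE). Fatty acid oxidation genes gave 3 higher and 0 lower of 35, among them Ppargc1b, a coactivator of mitochondrial genes, with OP values of 8.26, 8.47 and 8.78 all above OR values of 8.21, 8.12 and 8.22.

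Other lists held single genes that separated the groups. Their counts at unadjusted p under 0.05 stand against 4.89% higher and 6.1% lower of all genes. Among amino acid transporters, 4 of 25 were higher and 2 lower, with Slc38a4 first and the glycine transporter Slc6a9 next at 0.26 ± 0.084 (SE). Of the others, chosen after their values were seen, the taurine carrier Slc6a6 differed by 0.61, the leucine carrier Slc7a5 by 0.61 and the arginine carrier Slc7a3 by -2.06, and the cystine carrier Slc7a9 differed by -0.23 ± 0.088 (SE). Of 25 DNA repair genes, 3 were lower and 1 higher. Nbn, part of the complex that senses double-strand breaks, had OP values of 9.41, 9.75 and 9.91 and OR values of 10.53, 9.95 and 10.11, a difference of -0.50 ± 0.14 (SE) without overlap. Xrcc4, of the end-joining pathway, differed by -0.33 ± 0.11 (SE). Akr1b8, an aldo-keto reductase, had the largest of the xenobiotic and steroid metabolism differences at unadjusted p under 0.05, with OP values of 9.15, 10.61 and 10.97, OR values of 11.62, 11.75 and 11.69 and a difference of -1.33 ± 0.39 (SE). Por, the electron donor of the cytochromes P450, differed by -0.57 ± 0.19 (SE), and the list gave 1 higher and 3 lower of 48. The membrane collagenase Mmp14 had 14.85, 15.21 and 15.48 against 14.63, 14.67 and 14.19, all OP above all OR cancers, at 0.71 ± 0.24 (SE). Larger but more scattered differences, chosen after their values were seen, were those of Lefty2, an inhibitor of nodal signalling (-2.19 ± 0.72 SE), Serpinb5 or maspin (-1.02 ± 0.39 SE) and Tmem54 (-1.11 ± 0.34 SE), all 3 lower without overlap, and of the homeobox gene Msx1 (1.09 ± 0.37 SE), higher without overlap.

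Matrix and proteolysis genes went both ways. The counts below stand against 4.89% higher and 6.1% lower of all genes. Of metalloproteinases, plasminogen activators and their inhibitors, 2 higher and 2 lower of 25 measured had an unadjusted p under 0.05, with a median of -0.094. Beside Mmp14, the inhibitor gene Timp3 had OP values of 8.14, 8.87 and 10.00 and OR values of 8.30, 7.94 and 8.22, a difference of 0.81 ± 0.31 (SE). Plau, which encodes urokinase, was lower, with OP values of 7.65, 8.15 and 8.80 against 8.35, 9.10 and 9.26 and a difference of -0.75 ± 0.27 (SE), and the sheddase Adam17, which releases TGF-alpha from the membrane and was chosen after its values were seen, differed by -0.41. Of fibroblast and matrix markers, 2 higher and 0 lower of 25 had an unadjusted p under 0.05, Timp3 again and elastin (Eln, 0.38 ± 0.15 SE), while the list median was -0.25. In the Wnt pathway the counts were 1 higher and 2 lower of 16: the target gene Axin2 differed by 0.36 ± 0.14 (SE), and Ctnnb1 and Apc were lower, Apc by values of 7.24, 7.38 and 7.45 against 7.47, 7.69 and 7.58 on its brightest probe and with the opposite sign, 0.39, on another. Keratins and claudins gave 1 higher and 3 lower of 28, with the claudin Cldn19 higher by 0.24 ± 0.094 (SE) and Krt8, Krt13 and Krt18 lower.

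Genes of inflammation and of the interferon response held few differences at unadjusted p under 0.05, where 4.89% of all genes were higher and 6.1% lower. The counts were 0 higher and 3 lower of 47 for inflammation and chemokine genes and 0 higher and 1 lower of 29 for interferon response genes, with medians of -0.046 and -0.35. Mif, a macrophage cytokine gene that tumour cells also express, had OP values of 16.22, 16.55 and 16.68 below OR values of 16.88, 16.90 and 16.69, a difference of -0.29 ± 0.098 (SE). Ptgs1, the constitutive cyclooxygenase, had 8.39, 9.01 and 9.83 against 9.86, 10.33 and 9.67 and differed by -0.92 ± 0.34 (SE) with overlap, and the endotoxin receptor gene Tlr4 differed by -0.19 ± 0.084 (SE). The interferon-induced exonuclease gene Isg20 had 11.46, 11.96 and 12.33 against 12.73, 12.75 and 12.47, all OP cancers below all OR cancers, a difference of -0.69 ± 0.25 (SE). In the list of MHC class II genes, RT1-DOb differed by -0.48 ± 0.19 (SE) and the median over the list was -0.77. The T and NK cell list had 0 higher and 0 lower of 24 with Il2ra at -0.29 ± 0.18 (SE) as its smallest p, the macrophage list 0 higher and 0 lower of 16 with C1qb at -0.82 ± 0.54 (SE), and the mast cell list 0 higher and 0 lower of 12 with Mcpt4 at -0.41 ± 0.19 (SE). The B and plasma cell list had 0 higher and 0 lower of 5 and the neutrophil list 0 higher and 0 lower of 8, with Cd37 at -0.40 ± 0.32 (SE) and Mmp8 at 0.33 ± 0.39 (SE) first.

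The remaining lists had at most 3 members each at unadjusted p under 0.05, where 4.89% of all genes were higher and 6.1% lower. Immediate early genes gave 1 higher and 1 lower of 29, with the orphan receptor gene Nr4a2 higher (0.23 ± 0.073 SE) and Klf4 lower (-0.79 ± 0.34 SE). Nerve and Schwann cell markers gave 2 higher and 1 lower of 18, among them the myelin gene Pmp22 at 0.61 ± 0.27 (SE), Nefl at 0.17 ± 0.068 (SE) and Gfap at -0.46 ± 0.12 (SE). Nefl was not well above background on any OP or OR cancer. Adipocyte markers gave 0 higher and 2 lower of 29, resistin (Retn, -0.33 ± 0.14 SE) and the adipogenic factor Cebpa (-0.25 ± 0.11 SE), and Adipoq differed by -0.24 ± 0.13 (SE). Milk and secretory genes gave 2 higher and 0 lower of 19, the immunoglobulin transporter Pigr (0.92 ± 0.41 SE) and the folate receptor Folr1 (0.66 ± 0.29 SE), and skin keratinocyte markers 0 higher and 2 lower of 10, Krt13 (-1.14 ± 0.38 SE) and involucrin (Ivl, -0.36 ± 0.11 SE). Krt13 was well above background on 2 OP cancers, and Ivl on 0 OP cancers and 1 OR cancer. Oxidative stress defence genes (0 higher and 0 lower of 40), S100 and peptidylarginine deiminase genes (0 higher and 0 lower of 13), cell cycle inhibitors with D cyclins and oncogenes (0 higher and 0 lower of 28), endothelial markers (0 higher and 0 lower of 14), skeletal muscle markers (0 higher and 0 lower of 15) and myoepithelial markers (0 higher and 0 lower of 13) had no member at that level. The smallest p of these lists belonged to Aldh1a1 (-1.01 ± 0.47 SE), S100a6 (-0.84 ± 0.39 SE), Ccnd1, the vessel receptor Kdr (0.73 ± 0.35 SE), Actn3 (1.12 ± 0.62 SE) and desmin (Des, 1.77).

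**Figure D3:**
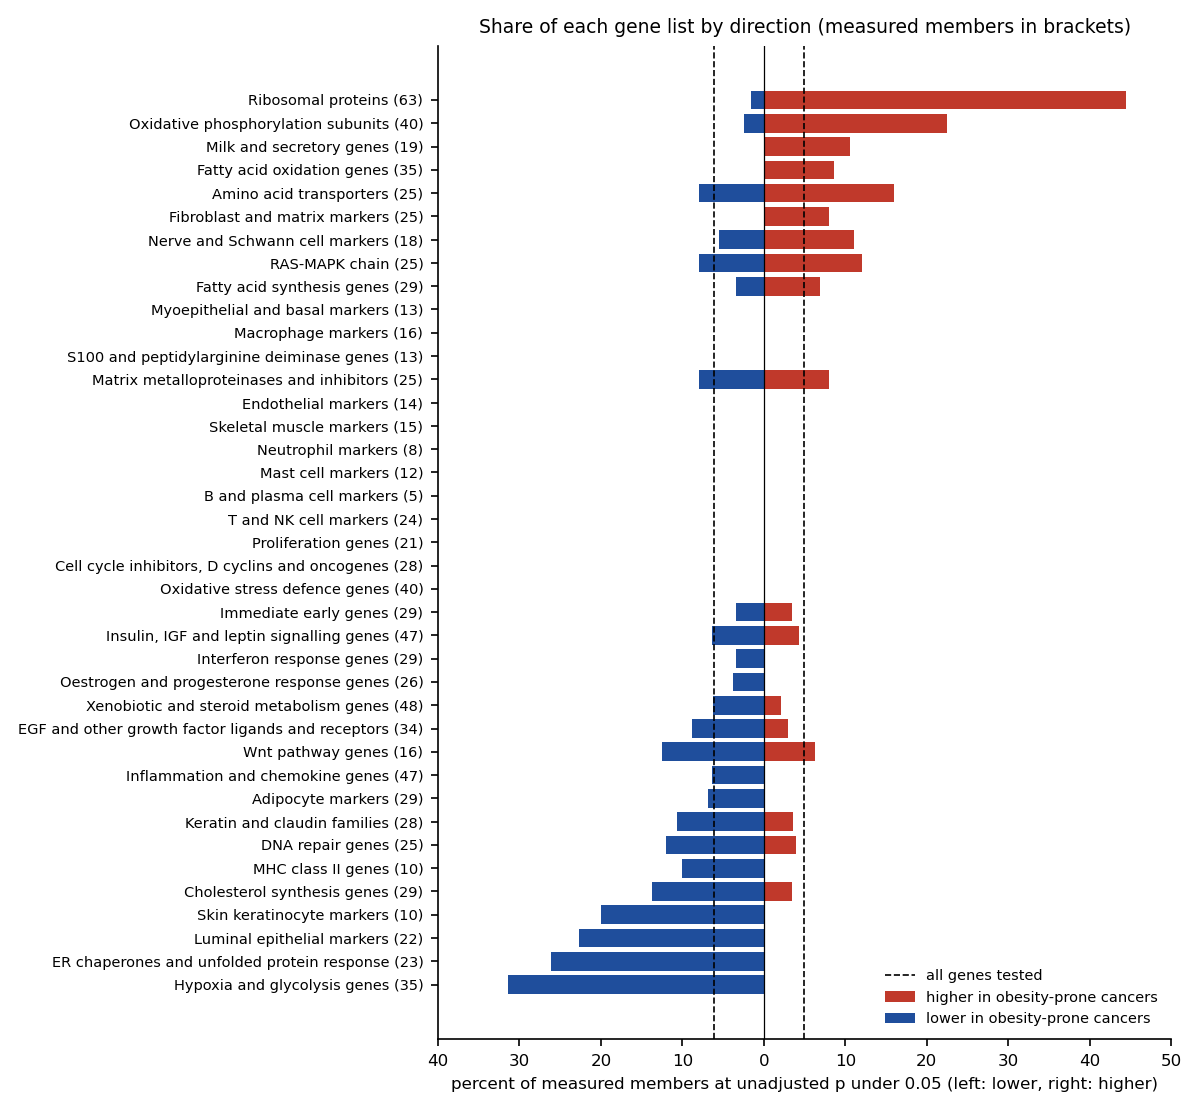
Percent of the measured members of each of 39 gene lists (y axis, members in brackets) at unadjusted p under 0.05, higher in OP cancers to the right and lower to the left, with dashed lines at the 4.89% and 6.1% of all 36043 genes. Ribosomal proteins reach furthest to the right with 28 of 63, and hypoxia and glycolysis genes furthest to the left with 11 of 35.

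OP cancer 6 stood apart from the other OP cancers in markers of other cell types. Its mean over 8 neutrophil markers was 11.88, against 7.64 to 8.47 in OP cancers 1 to 5 and 7.82 to 8.54 in OR cancers. Over 16 macrophage markers it was 13.07, against 10.74 to 11.62 and 11.72 to 12.17. Over 10 MHC class II genes, which present antigen, it was 12.57, against 9.39 to 10.96 and 10.72 to 11.78. OP cancer 6 was also the highest for 24 T and NK cell markers (8.72, 7.36 to 7.68 and 7.48 to 8.25) and 25 fibroblast and matrix markers (13.43, 11.52 to 12.34 and 12.23 to 12.31). Skeletal muscle markers averaged 10.40 in OP cancer 6 and 9.09 in OP cancer 2, and 7.44 to 7.59 in the other OP and the OR cancers. Other single cancers were high in single lists: mast cell markers in OP cancer 1 (9.74) and OR cancer 2 (9.42), and skin keratinocyte markers in OR cancer 3 (10.96, against 9.11 and 9.11 in the other OR cancers). The keratin Krt13 of stratified epithelium followed OR cancer 3, with OR values of 7.59, 6.77 and 9.24 and OP values of 6.68, 6.72 and 6.77. The part of these cell types in the differences between groups was not tested.

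**Figure D4:**
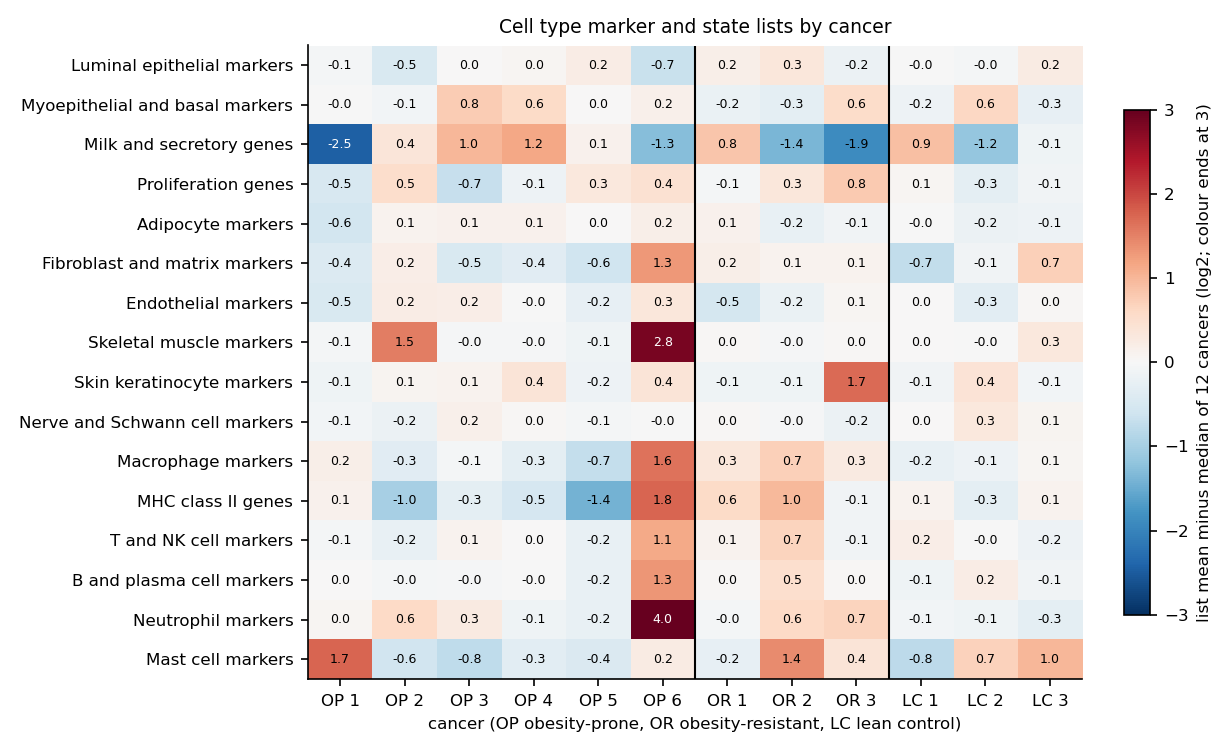
Mean log2 signal of 16 marker and state lists (rows) in each of the 12 cancers (columns) minus the median of that list over the 12, with colour ending at 3. OP cancer 6 is high for neutrophil, macrophage, MHC class II, T and NK cell, B cell, fibroblast and skeletal muscle markers, and OP cancer 1 is low for milk genes.

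Leaving out OP cancer 6, whose values had been seen, brought genes past the adjusted threshold. In the 5 OP cancers against the 3 OR cancers, 37 genes (0.103%) passed, 33 higher and 4 lower, and 7 of them had a gene symbol. Zcchc9 rose by 0.76 ± 0.069 (SE; limma adjusted p = 0.0137), and Slc38a4 by 1.07 ± 0.15 (adjusted p = 0.0386). Maco1, a membrane protein gene of neurons, rose by 0.79 and Ttc1, a tetratricopeptide adaptor gene, by 0.65, although over all 9 cancers their other probes gave differences of 0.040 at the lowest and -0.093. The 3 lower genes with a symbol are known from immune cells. Jak3, the kinase of cytokine receptors on lymphocytes, fell by 0.92 ± 0.10, from OR values of 10.98, 11.14 and 11.08 to 9.87 to 10.28 in the 5 OP cancers, with OP cancer 6 at 11.16. Tnfrsf18 (GITR), a receptor of regulatory and activated T cells, fell by 1.16, and Rnase3, an eosinophil ribonuclease, fell by 1.02. For Tnfrsf18 the LC values of 7.31, 7.43 and 7.70 lay with the 5 OP cancers, and for Jak3 the LC values of 11.15, 10.95 and 11.02 lay with the OR cancers. Of the macrophage markers, 10 of 16 and of the MHC class II genes 7 of 10 were then lower at unadjusted p under 0.05, against 7.5% of all genes, where over all 9 cancers the counts had been 0 and 1. OP cancer 6 had the highest mean of both lists, so these counts follow in part from the choice to remove it and are no separate support. The same limit holds for all 7 genes with a symbol that passed. OP cancer 6 was the highest OP cancer in Jak3, Tnfrsf18 and Rnase3 and the lowest in Zcchc9, Slc38a4, Maco1 and Ttc1. Cd74, the invariant chain of MHC class II, had OP values of 12.97, 14.16 and 16.70 over the 6 cancers and OR values of 15.53, 16.50 and 14.38, and its difference over all 9 was -1.08 ± 0.71 (SE). Maco1, Ttc1, Jak3, Tnfrsf18, Rnase3 and Cd74 were chosen after their values were seen.

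Both groups were also set against the LC cancers, which share the OP and OR samples with the comparison above. With limma, 0 genes passed for OP minus LC and 2637 (7.32%) had an unadjusted p under 0.05, and 0 passed for OR minus LC with 1524 (4.23%). Several genes placed the OP cancers apart from both other groups. Slc38a4 differed by 0.85 for OP minus LC and -0.16 for OR minus LC, Mras by 0.79 and -0.13, and Zcchc9 by 0.93 and 0.27. Rpl13a gave 0.42 and 0.001, Cdh1 -0.45 and 0.014, and Pdia4 -0.50 and 0.12. Other genes placed the OR cancers apart instead. Bcas1 gave 0.084 for OP minus LC and 0.63 for OR minus LC, F13a1 0.025 and 0.71, and Lama3 -0.080 and 0.49.

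Normal mammary tissue of the same diet groups gave fewer genes at unadjusted p under 0.05, with 5 samples in all. Between 3 OP and 2 OR samples, 0 of 36043 genes passed in limma, the smallest adjusted p was 1, and 277 (0.769%) had an unadjusted p under 0.05. For Slc38a4 the OP normal values were 7.79, 7.65 and 8.65 and the OR normal values 8.35 and 8.50, a difference of -0.40 ± 0.36 (SE). The difference between the tissues, tested as an interaction over all 20 arrays, passed for 0 genes, with 963 (2.67%) at unadjusted p under 0.05, 1.78% higher and 0.891% lower. Zcchc9 had the smallest interaction p of the named genes, 7.05e-05 unadjusted, with OP minus OR 0.66 in cancers and -0.38 in normal tissue. The other genes ranked first by interaction were Mrfap1 (-0.44 in cancers and 0.31 in normal tissue), the peroxisomal membrane gene Pxmp4 (0.31 and -0.71), Bhmt, which makes methionine from homocysteine (0.34 and -1.05), Ctnna1 (-0.47 and 0.34) and Gjb5 (-0.45 and 0.058). The smallest adjusted p of the interaction rounded to 1, so that no gene was shown to differ between groups in cancers and not in normal tissue. In normal tissue the median difference of the ribosomal protein genes was -0.0079, of the hypoxia and glycolysis genes 0.064 and of the ER chaperones 0.092. Of these 3 lists 0 members were at unadjusted p under 0.05, where 0.769% of all genes were.

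**Figure D5:**
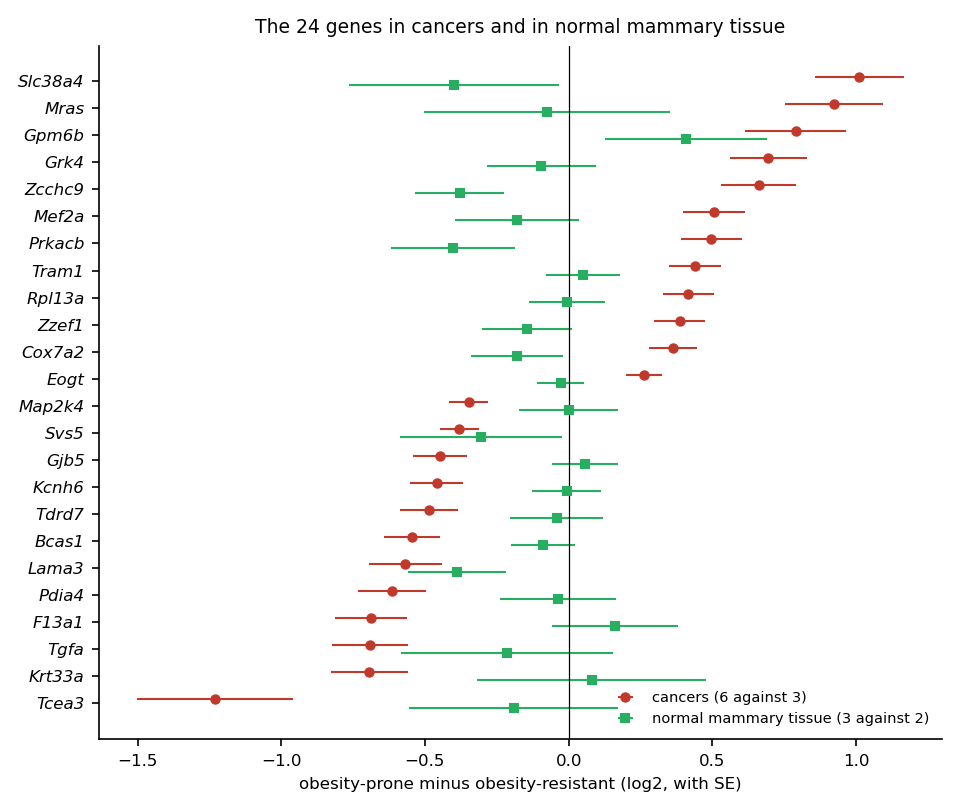
OP minus OR difference on the log2 scale with its SE (x axis) for the 24 named genes (y axis), in cancers (red circles, 6 against 3) and in normal mammary tissue (green squares, 3 against 2). The genes were chosen by their difference in cancers, and all 24 lie nearer to 0 in normal tissue, such as Mras with 0.92 in cancers and -0.08 in normal tissue.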

How the data were processed

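The 9 OP and OR cancers, with the 3 LC cancers and 8 normal tissues, were each read on 1 Agilent whole rat genome array of 1 colour. Per the file headers, the authors' scanner software (Feature Extraction 9.5.1.1, and 10.7.3.1 per the submitters' processing notes) gave median spot and local background intensity, processed intensity and quality flags of 0 or 1 (a unit listed as other) for each spot, and the array design was built on rn4. The authors' deposited value table holds log2 values, named as RMA and GeneSpring GX output per the submitters' processing notes. Its rows agreed within 0.01, for 99.8% of values, with log2 processed intensity less each array's 75th percentile and centred per probe. It served only as an alternative.

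Median spot and background intensity were corrected with normexp (offset 50), taken to log2 and quantile-normalised over the 20 arrays with limma 3.58.1 in R 4.3.3. Spots of a probe were averaged, 115 probes with outlier marks and 825 dim probes were left out, and the brightest of the 40072 remaining probes stood for each of 36043 genes. Dim meant well above background on under 0.5 of the arrays of every group. No spot was saturated. Symbols came from RefSeq (GRCr8) through accessions, of which 8991 of 13948 matched, and 8662 tested genes had one; the others are not named. Groups came from the sample titles. OP was compared with OR in limma's moderated model over the 12 cancers, and with normal tissue over all 20 arrays, with Benjamini-Hochberg adjustment. The procedure was tested on simulated data.

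Named genes with a symbol were the 12 in each direction with the smallest p, since none passed, the members with the smallest p in each of 39 lists (up to 3, or 1 where fewer reached p 0.05), the 6 with the smallest interaction p, and a fixed set of hormone, growth factor and adipokine genes. The comparison, the lists and the rule were chosen with earlier results of these data known, and some genes are not reported here one by one. Alternatives were other scalings, filters, blocks and covariates, and each array left out in turn.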

Additional observations from a re-analysis of the deposited data

Results flagged for a closer look

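In 18 of 150 sets of OP cancer values examined, 1 cancer lay far from the other 5 by Dixon's gap test at the 95% level, which chance alone gives in about 1 of 20 sets. The sets were not chosen apart from these values: Jak3, Rnase3, Tnfrsf18 and Maco1 were examined because they passed the adjusted threshold without OP cancer 6, so the 18 cannot be read against that rate. Most of these were OP cancer 6. Its log2 signal, with the nearest other OP cancer, was high for the leptin gene, which no OP or OR cancer had well above background, and for genes known from immune cells or epithelium: Lep (6.59, nearest 6.37), Il2ra (7.54, nearest 7.01), Cd37 (8.75, nearest 7.42), Mmp8 (8.14, nearest 6.44), Klf4 (11.51, nearest 10.57), Jak3 (11.16, nearest 10.28), Rnase3 (7.62, nearest 6.67) and Tnfrsf18 (8.81, nearest 7.59). It was low for Zcchc9 (10.79, nearest 11.27), Rpl10a (15.05, nearest 15.38), Maco1 (10.06, nearest 10.65) and Rps10 (14.92, nearest 15.23). In OP cancer 1, Tgfa (9.77, nearest 10.35) and Cyp2a1 (6.24, nearest 6.38) were low and Xrcc4 (7.96, nearest 7.70) was high. The myelin gene Pmp22 was high in OP cancer 3 (11.97, nearest 11.35), and Mif, a cytokine gene, was low in OP cancer 4 (16.22, nearest 16.54). The share of probes well above background was 79.3% in OP cancer 2, with 67.3% in the nearest other OP cancer. Groups of 3 cancers were not examined in this way.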

How the results depend on the processing

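The count of genes with an adjusted p under 0.05 in limma, 0 between OP and OR cancers, was 12 on processed signals scaled to the 75th percentile, 1 with array weights, 4 with slide as a fixed block and 1 within scan day 1, and 0 to 37 when 1 cancer was left out, 37 being without OP cancer 6. The count at unadjusted p under 0.05, 3962, was 6491 on processed signals, 1044 on normexp signals scaled to the 75th percentile, 1902 of 18351 genes in the authors' value table, 6619 with array weights, 2553 in the model of all 20 arrays, 2628 within scan day 2, and 2225 (without OR cancer 2) to 5567 (without OP cancer 6), with 2533 without OR cancer 3. For the interaction, array weights gave 229 genes, and leaving out 1 array gave 0 to 4, with 1 without OP cancer 6 or OR normal 1 and 4 without OR normal 2. For normal tissue, array weights gave 164, and leaving out 1 array gave 0 to 10, with 10 without OR normal 1 and 4 without OR normal 2. The difference in the share of probes well above background ran from -11.9 (without OP cancer 2, exact permutation p = 0.0179) to -7.37 (without OR cancer 2, exact permutation p = 0.321). With slide as a random block (correlation 0.162), 0 genes passed and 2964 had an unadjusted p under 0.05, and with scan day as a block 0 and 4538. Same-numbered OP and OR cancers did not deviate together (correlations 0.04, -0.25 and -0.08), so the numbers do not pair them, and the replicate block gave 0 genes and 4491 at unadjusted p under 0.05. The causes of these shifts were not tested.

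Of 4281 values of 149 named genes under the alternatives, 4231 kept the sign and the side of the adjusted threshold, 7 passed it and 43, of 23 genes, changed sign. The sign changes were Areg 0.11 and Elovl5 -0.27 on processed signals; Areg 0.069 on normexp signals scaled to the 75th percentile; Areg 0.11 and Apc 0.70 in the authors' value table; Apc 0.091 on the mean of its probes; Areg 0.10 with array weights. With slide as a fixed block, OP cancer 1 alone stands for the OP cancers. The sign changes in that setting were Lep 0.053, Lepr 0.037, Areg 1.24, Igf1 1.28, Igf1r -0.56, Csn2 -5.47, Pigr -0.82, Des -1.58, Actn3 -0.12, Nefl -0.083, C1qb 0.37, S100a6 0.61, RT1-Bb 0.12 and Igfbp5 -0.59. With the share of probes above background as a covariate they were Lepr 0.043 and Igf1r -0.28. Leaving out 1 cancer at a time changed the sign of Lep (-0.053 to 0.0021), Lepr (-0.090 to 0.013), Areg (-0.81 to 0.63) and Igf1r (-0.025 to 0.35). Within scan day 1 they were Lep 0.0067 and Pgr -0.040, and within scan day 2 Areg 0.38, Igf1r -0.27, Csn2 -5.31, Pmp22 -0.091, Calcr 0.044, Irs1 0.029, Dgat1 -0.049, Echs1 -0.051 and Ddit3 0.25. The 24 genes ranked first kept their sign in each alternative that held them, which was 19 of them in the authors' value table and 23 under the stricter background filter. For the settings that left out a cancer or kept 1 scan day this was fixed in advance, since the groups did not overlap in these genes. With slide as a fixed block 11 of the 24 were at unadjusted p under 0.05, and within scan day 2 11. Svs5 and F13a1 were well above background on 1 and 2 of 6 OP arrays, so background limits the size of their difference. The same limit holds for other named genes, among them Nefl and Ivl (0 of 6 OP arrays), Calcr and Mmp8 (1 of 6), Krt13 (2 of 6) and Esr1 (3 of 6).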
